A study of Mus musculus with 24 samples.

Results

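The genes of sterol and fatty acid synthesis were described in the P19 line of mouse embryonal carcinoma cells, which are pluripotent tumour cells. They were chosen by pathway from a list of 32 genes: 18 enzymes of cholesterol synthesis, 6 genes that regulate the pathway or move sterol, 3 genes of fatty acid synthesis and acetyl-CoA supply, and 5 desaturases and elongases. A probe set assigned to 1 gene symbol was found for 31 of them among 18193 genes so covered, and Acat2 was not analysed here. All 31 passed the filter on dim probe sets, which 12715 genes passed in all.

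Total RNA came from 12 samples in 4 groups of 3: monolayer cultures at D1, suspension cultures at D1, monolayer cultures at D2 and suspension cultures at D2. The labels spell out neither D nor any inducer, name no genetic change, and give all 4 groups the same medium, alpha medium with fetal bovine and calf serum. The cells are described as a clonal culture, and whether replicates of a group were separate cultures is not stated, so the spread behind each p-value may be technical. Each RNA was hybridised to 2 Affymetrix chips, MOE430A and MOE430B, which makes 24 arrays, and the arrays were washed in 3 batches that each held 1 sample of every group.

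Cells make cholesterol from acetyl-CoA through mevalonate, isoprenoid units, squalene and lanosterol, and make fatty acids from acetyl-CoA and malonyl-CoA. Most genes of both routes are targets of the SREBP transcription factors, encoded by Srebf1 and Srebf2. Scap carries the SREBP precursors out of the endoplasmic reticulum when membrane sterol is low, and the Insig proteins hold Scap back when sterol is plentiful, so that cells fed with lipoproteins from serum usually express the pathway less.

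The promoters of these genes are shown first because the sequences through which SREBP is known to act lie close to the start site: a sterol response element, usually beside boxes for the factors NF-Y and Sp1. RefSeq windows from 250 bases before to 50 bases after the start site (build GRCm38.p6) were given for 25 of the 32 genes, 33 windows in all. The classical element, searched as TCACNCCAC on both strands, was in 1 of the 33 windows, that of Hmgcs1, and in 1.24% of 32851 windows of all genes. The NF-Y box CCAAT, on both strands, was in 21 of the 33 windows (63.6%) against 37.4% of all windows. The Sp1 box GGGCGG, on both strands, was in 25 of the 33 (75.8%) against 35.7%. A match is a description of letters, not of binding, and no match says only that these letters are not in this window. Hmgcs1 is printed for its sterol element. Nsdhl, Fasn and Idi1 were added after their values were seen, as members described at length below whose windows hold at least 2 NF-Y boxes. Capitals mark the sterol element TCACCCCAC and the NF-Y boxes, which read CCAAT or, on the other strand, ATTGG.
Hmgcs1: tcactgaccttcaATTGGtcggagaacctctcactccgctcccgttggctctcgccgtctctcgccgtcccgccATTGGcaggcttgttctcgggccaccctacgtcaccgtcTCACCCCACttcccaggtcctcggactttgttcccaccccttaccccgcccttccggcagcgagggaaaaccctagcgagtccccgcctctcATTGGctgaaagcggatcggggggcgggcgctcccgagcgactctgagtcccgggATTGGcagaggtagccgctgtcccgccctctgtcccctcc
Nsdhl: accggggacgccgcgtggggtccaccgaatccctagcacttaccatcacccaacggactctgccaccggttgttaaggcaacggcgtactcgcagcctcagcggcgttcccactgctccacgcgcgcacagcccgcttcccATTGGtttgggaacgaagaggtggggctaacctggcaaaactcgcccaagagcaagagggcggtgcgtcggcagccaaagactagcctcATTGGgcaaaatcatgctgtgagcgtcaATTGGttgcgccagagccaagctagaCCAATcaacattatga
Fasn: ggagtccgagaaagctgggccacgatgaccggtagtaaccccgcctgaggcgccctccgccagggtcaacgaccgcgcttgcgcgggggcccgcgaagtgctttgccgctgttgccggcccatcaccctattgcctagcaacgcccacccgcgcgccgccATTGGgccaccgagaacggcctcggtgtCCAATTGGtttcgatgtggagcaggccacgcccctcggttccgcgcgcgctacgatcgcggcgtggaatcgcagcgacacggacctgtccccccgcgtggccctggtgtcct
Idi1: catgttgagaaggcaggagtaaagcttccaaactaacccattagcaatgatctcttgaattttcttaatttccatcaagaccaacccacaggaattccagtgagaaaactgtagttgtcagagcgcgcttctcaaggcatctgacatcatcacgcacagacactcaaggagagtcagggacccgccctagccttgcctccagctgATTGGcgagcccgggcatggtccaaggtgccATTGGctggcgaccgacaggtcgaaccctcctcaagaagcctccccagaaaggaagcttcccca

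The Hmgcs1 window (chr13:119690101-119690400, plus strand) has the sterol element starting 137 bases before the start site and 4 NF-Y boxes. The Nsdhl window (chrX:72918271-72918570, plus strand) has 4 NF-Y boxes, the Fasn window (chr11:120824498-120824797, minus strand) has 3, of which the ones starting 62 and 59 bases before the start site overlap, and the Idi1 window (chr13:8885356-8885655, plus strand) has 2.

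The mean signals of the members lay between the 64.5 percentile of a chip, for Insig2, and the 98.0 percentile, for Scd2. Probe sets differ in brightness, so levels are compared between samples and not between genes. Over the 12 samples the range of a member on the log2 scale was narrowest for Mvd, at 0.57, and widest for Hmgcs1, at 2.22. As a check of the label, all 8 embryonal carcinoma markers exceeded the chip median on all 12 arrays of their chip, with summed signals of 124831 to 149158 per sample. Summed signals per sample were 2066 to 5117 for 7 endoderm markers, 5784 to 8951 for 6 neural, 3608 to 5206 for 6 muscle and 2167 to 3506 for 6 fibroblast markers. Of these 25 markers, 9 were above the chip median on 0 of 12 arrays, among them Afp, Pax6, Myog and Col1a1. Stmn2, Des, Tnnt2 and Col1a2 were above it on all 12, Actc1 and Thy1 on 11, Gata6 and Tubb3 on 9, and the other 8 on 1 to 6. The median correlation of an array with the others of its chip was at least 0.938 on MOE430A and 0.832 on MOE430B.

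At D2 the pathway's transcripts lay below their D1 level for most members, though no member passed the test in any of the 7 comparisons made. Averaged over both cultures, 27 of 31 members were lower at D2 and 4 were higher, Mvd, Tm7sf2, Insig2 and Scap. The median log2 difference of D2 minus D1 was -0.22 over the members and 0.01 over all 12715 tested genes, of which 47.7% lay below 0. The sterol enzymes from squalene to cholesterol had a median of -0.36, with 9 of 10 below 0, and the enzymes up to squalene had -0.17, with 6 of 7 below 0. All 3 fatty acid synthesis genes and all 5 desaturases and elongases were below 0, with medians of -0.28 and -0.12. In bulk RNA, fewer cells of a type and less RNA per cell cannot be told apart.

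The test was limma's moderated test on log2 signals, with Benjamini-Hochberg adjustment over all 26516 tested probe sets and a threshold of 0.05. In the comparison of stages averaged over cultures it called 0.0% of genes, and the smallest adjusted p of a member was 0.116, for Dhcr7. At an unadjusted p under 0.05, 11 members were lower and 0 were higher, against 5.51% and 6.37% of all genes. The 11 were Hmgcs1, Idi1, Sqle, Lss, Msmo1, Nsdhl, Dhcr7, Stard4, Fasn, Scd2 and Elovl6. With limma's weights for array quality, 4 of them, Idi1, Dhcr7, Fasn and Elovl6, passed at adjusted p of 0.0402, 0.0218, 0.0365 and 0.0428. Those weights called 485 of all 26516 probe sets in this comparison, against 0 without them.

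**Figure D1:**
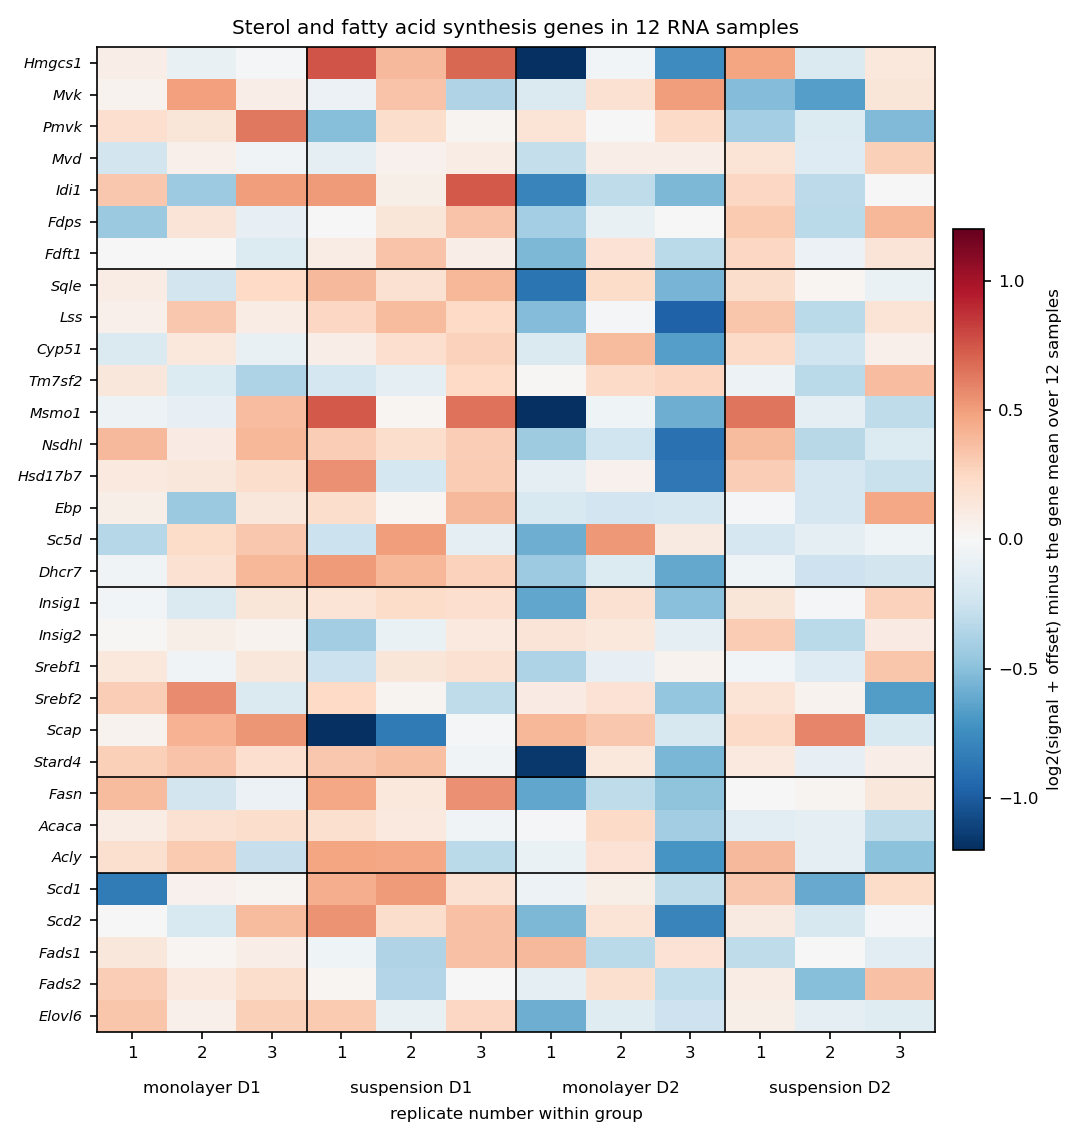
Each cell is the log2(signal + offset) of 1 member in 1 RNA sample minus that gene's mean over the 12 samples, with colours ending at -1.2 and 1.2. Columns are the 3 replicates of each group, rows are the 31 members, and lines part the mevalonate steps, the steps from squalene to cholesterol, the regulators with Stard4, fatty acid synthesis, and desaturation with elongation. The darkest blue cells of the sterol enzymes stand in monolayer D2 replicates 1 and 3.

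The spread between samples was uneven. The lowest of the 12 samples was monolayer D2 replicate 1 for 12 members and monolayer D2 replicate 3 for 8, against 6.23% and 9.28% of all genes, and monolayer D2 replicate 2 for 0 members, against 9.9%. The median deviation of the members from their own means was -0.37, 0.08 and -0.42 in the 3 monolayer D2 samples and 0.16, -0.16 and 0.06 in the 3 suspension D2 samples. At D1 it was 0.08, 0.07 and 0.13 in monolayer and 0.21, 0.14 and 0.24 in suspension. Monolayer D2 replicate 2 thus stood with the D1 samples and apart from the other replicates of its group.

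This split followed the wash batches. In the batch washed earlier on station 1, which held monolayer D2 replicate 2 and suspension D2 replicate 1, the members' median difference of D2 minus D1 was -0.02, with 16 of 31 below 0. In the batch washed earlier on station 2 it was -0.38, with 27 below 0, and in the later run on station 1 it was -0.33, with 26 below 0. Values by batch are given below in the order station 2, station 1 earlier, station 1 later. The median over all genes was 0.01 in each batch. A difference below 0 in all 3 batches was found for 11 members: Acaca, Acly, Dhcr7, Elovl6, Fasn, Lss, Nsdhl, Sc5d, Scd1, Srebf2 and Stard4. No share of all genes is given for this count, and the batches divide the same samples as the average. Each batch holds 1 sample per group, so wash batch and sample cannot be told apart. The batches followed the replicate numbers, except that replicates 1 and 2 of suspension D2 changed places.

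**Figure D2:**
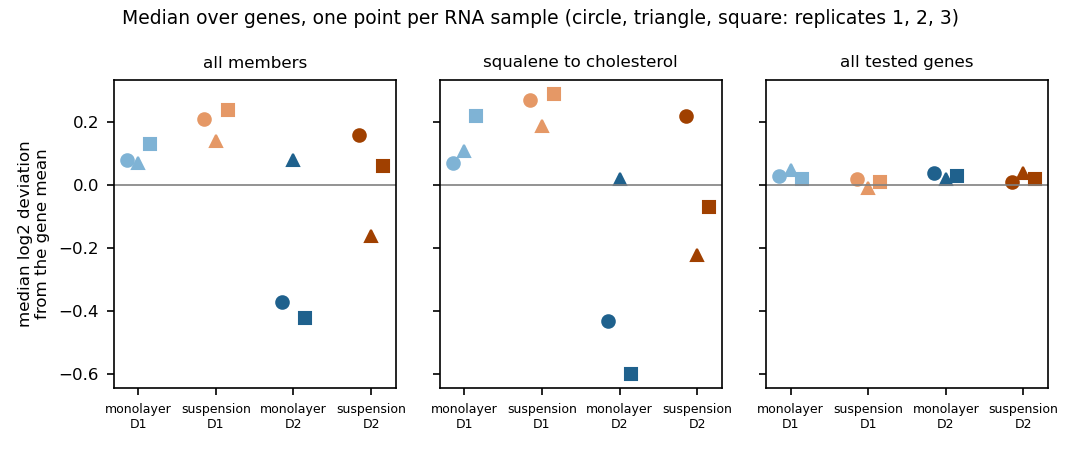
Each point is 1 RNA sample, and the y axis is the median log2 deviation of a set of genes from each gene's mean over the 12 samples: all 31 members, the 10 enzymes from squalene to cholesterol, and all 12715 tested genes. For the members, monolayer D2 replicates 1 and 3 lie at -0.37 and -0.42 while replicate 2 lies at 0.08. All tested genes stay near 0 in every sample.

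Some control probe sets also differed in mean signal between stages or cultures. The B1 repeat control of MOE430A was 2.36-fold lower at D2 than at D1 in monolayer and 2.54-fold lower in suspension, and 2.25-fold and 2.46-fold lower on MOE430B. Each of these had an exact permutation p of 0.1, two-sided, the smallest that 3 samples against 3 allow. The 18S ribosomal control of MOE430A was 1.94-fold higher in suspension than in monolayer at D1 (exact permutation p = 0.2) and 1.32-fold higher at D2 (exact permutation p = 0.3). The ratio of the 3′ to the 5′ signal of beta-actin, a measure of RNA quality, was 1.25 to 1.33 in suspension D1 and 0.968 to 1.13 in monolayer D1 on MOE430B, with no overlap, and its means there were 1.07 and 1.01 at D2. On MOE430A its means were 1.25 in suspension and 1.09 in monolayer at D1, and 1.16 and 1.12 at D2. The part of these controls in the members' differences was not tested.

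Among the mevalonate steps, Hmgcs1, Idi1, Fdft1 and, by little, Fdps had their lowest group mean in monolayer at D2. Hmgcs1 encodes the cytosolic synthase that makes HMG-CoA, the precursor of mevalonate, and it is the member whose promoter window holds the sterol element. Its signal was 17140, 15250 and 16020 in monolayer D1, 27460, 21240 and 26240 in suspension D1, 5874, 15800 and 9610 in monolayer D2, and 22500, 14410 and 17710 in suspension D2. The 3 suspension D1 samples lay above the 3 monolayer D1 samples, and the groups overlapped at D2, where monolayer replicate 2 exceeded suspension replicate 2. Averaged over stages, Hmgcs1 was 1.69-fold higher in suspension, a log2 difference of 0.76 ± 0.19 (SE, 12 samples) with an adjusted p of 0.194 in limma. That adjusted p was 0.028 without monolayer D2 replicate 2, the highest sample of its group. In that setting 44 of 26516 probe sets were called for this comparison, against 68 with all samples. Hmgcs1 passed for culture averaged over stages under no other alternative. Averaged over cultures, it was lower at D2 by a log2 difference of -0.61 ± 0.19 (SE), adjusted p = 0.269 in limma. In the earlier batch of station 1 that difference was 0.07, against -1.23 and -0.65 in the other batches. The 3 other tested probe sets of Hmgcs1 gave log2 differences of 0.48 to 0.67 for culture and -0.43 to -0.33 for stage.

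Idi1 encodes the isomerase that interconverts the pair of isoprenoid building units. Its signal was 7743, 4560 and 8789 in monolayer D1, 8827, 6520 and 10330 in suspension D1, 3544, 5006 and 4244 in monolayer D2, and 7386, 4983 and 6204 in suspension D2. The lowest D1 sample in each culture was replicate 2, so that D1 and D2 overlapped in both cultures. D2 minus D1 averaged -0.57 ± 0.17 (SE), with an adjusted p of 0.244 in limma, and it was 0.16 in the earlier batch of station 1. Without monolayer D1 replicate 2, the lowest of its group, the adjusted p was 0.0297 in limma. In that setting 514 probe sets were called, against 0 with all samples.

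Both kinases of the mevalonate route ran the other way between cultures. Pmvk, which encodes phosphomevalonate kinase, had signals of 1570, 1515 and 2134 in monolayer D1, 938.6, 1580 and 1391 in suspension D1, 1530, 1366 and 1602 in monolayer D2, and 1016, 1214 and 929.9 in suspension D2. At D2 all 3 suspension samples lay below all 3 monolayer samples, and at D1 suspension replicate 2 overlapped with monolayer. The log2 difference of suspension minus monolayer was -0.46 ± 0.15 (SE), a 1.37-fold lower level with an adjusted p of 0.376 in limma, and it was below 0 in all 3 wash batches. Mvk, which encodes mevalonate kinase, gave -0.38 ± 0.19 (SE) for the same comparison, adjusted p = 0.643 in limma. The remaining steps to squalene, Mvd, Fdps and Fdft1, differed between stages by 0.06, -0.03 and -0.12 on the log2 scale. Fdps and Fdft1, the farnesyl diphosphate and squalene synthases, were both 0.29 higher in suspension on the log2 scale, with adjusted p of 0.649 and 0.611 in limma. The other tested probe sets of Fdft1 did not all point the same way.

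From squalene to cholesterol, Dhcr7 separated the stages most evenly. It encodes the reductase that makes cholesterol from dehydrocholesterol in the last step of the route. Its signal was 2988, 3519 and 4097 in monolayer D1, 4408, 4088 and 3756 in suspension D1, 2268, 2754 and 1998 in monolayer D2, and 2983, 2584 and 2650 in suspension D2. In each culture all 3 D2 samples lay below all 3 D1 samples, which was so in both cultures for Dhcr7 alone among the members and for 1.05% of all genes. Group means were 3535 ± 555 and 2340 ± 383 in monolayer and 4084 ± 326 and 2739 ± 214 in suspension (SD, n = 3). The D1 level was 1.49-fold the D2 level, a log2 difference of -0.58 ± 0.12 (SE) with an adjusted p of 0.116 in limma, and 0.0328 without monolayer D1 replicate 2. Leaving out that sample called 514 probe sets, against 0 with all samples. The difference was -0.57, -0.40 and -0.76 in the 3 wash batches, so that Dhcr7 kept it in the batch where the members' median was near 0. Only 1 probe set of Dhcr7 was tested.

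Nsdhl encodes a sterol dehydrogenase that works with Msmo1 to remove methyl groups from lanosterol's products. Its signal was 4795, 3918 and 4849 in monolayer D1, 4490, 4247 and 4496 in suspension D1, 2703, 3098 and 1941 in monolayer D2, and 4767, 2903 and 3267 in suspension D2. The stages did not overlap in monolayer, while suspension D2 replicate 1 read as high as D1. In monolayer Nsdhl had the lowest log2 difference of the 31 members, -0.82 ± 0.20 (SE, adjusted p = 0.299 in limma), and in suspension the difference was -0.30 ± 0.20 (SE, adjusted p = 0.861). The interaction of culture and stage was 0.51 ± 0.29 (SE), adjusted p = 1.0 in limma, so a difference between the cultures was not shown. In the earlier batch of station 1 the stage difference averaged over cultures was -0.08, against -0.72 and -0.88 in the others.

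Msmo1, which encodes the sterol methyl oxidase of the same demethylation, was chosen for its difference between cultures. Its signal was 4124, 4030 and 5599 in monolayer D1, 7191, 4379 and 6809 in suspension D1, 1818, 4162 and 2845 in monolayer D2, and 6761, 3983 and 3474 in suspension D2. Replicates 2 lay close together in all 4 groups, between 3983 and 4379, and the groups overlapped at both stages. Suspension minus monolayer was 0.55 ± 0.21 (SE), adjusted p = 0.537 in limma, and 0.95, 0.41 and 0.28 in the 3 wash batches.

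Lss encodes lanosterol synthase, which closes the sterol rings. Its signal was 3193, 3835 and 3248 in monolayer D1, 3647, 3981 and 3618 in suspension D1, 2110, 3015 and 1540 in monolayer D2, and 3859, 2440 and 3440 in suspension D2. All 3 monolayer D2 samples lay below monolayer D1, and suspension D2 overlapped with suspension D1. D2 minus D1 averaged -0.44 ± 0.16 (SE), adjusted p = 0.322 in limma. The probe set of Lss is of a type whose probes can match transcripts of more than 1 gene. The other enzymes of this stretch, Sqle, Cyp51, Tm7sf2, Hsd17b7, Ebp and Sc5d, gave stage differences from -0.37 for Hsd17b7 to 0.16 for Tm7sf2, with adjusted p of 0.471 or more in limma. Sqle, the squalene epoxidase, was the one of these with an unadjusted p under 0.05, at a log2 difference of -0.36 ± 0.16 (SE).

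**Figure D3:**
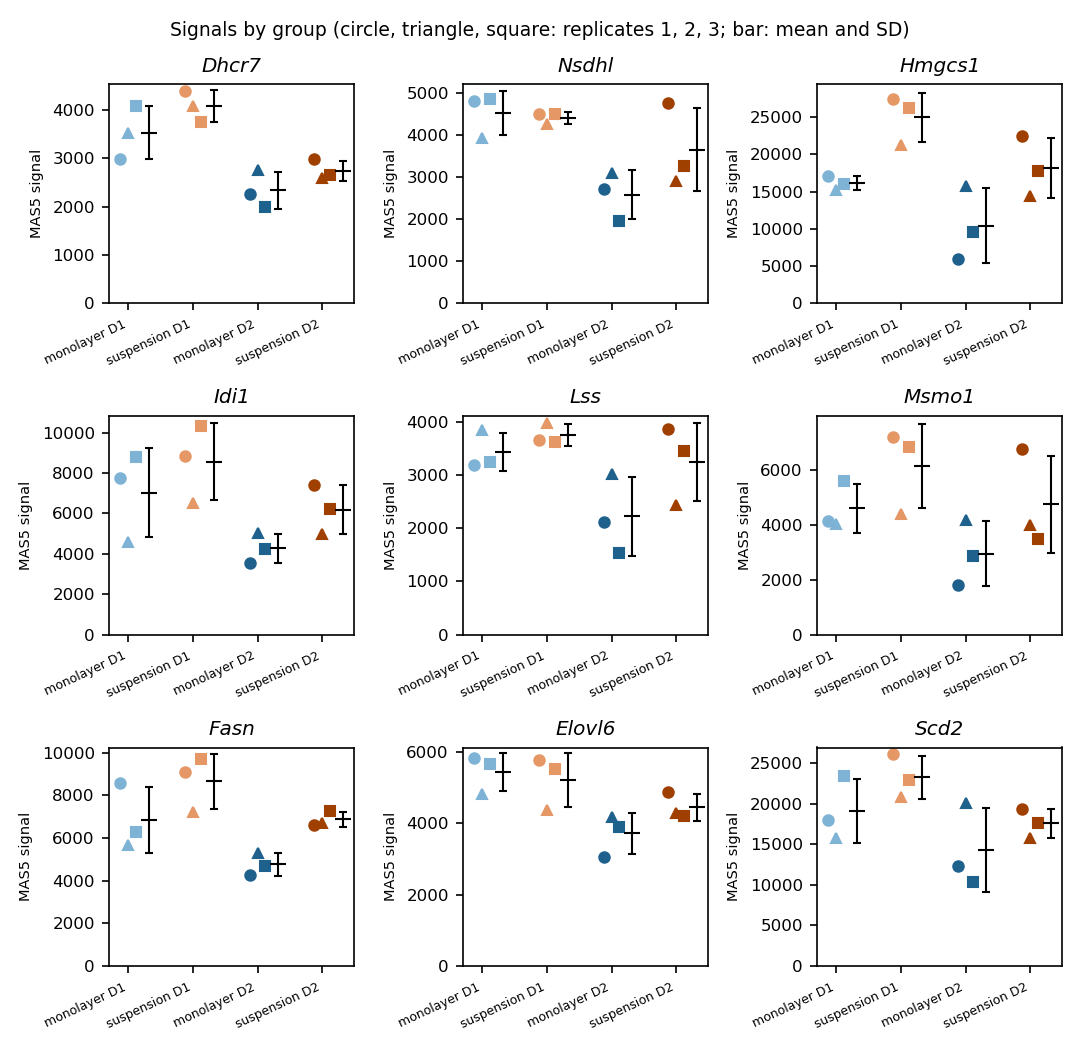
Signals of 9 members in each RNA sample on a linear axis from 0, with circles, triangles and squares for replicates 1, 2 and 3 and a bar for the mean and SD of each group of 3. The Dhcr7 points of D2 all lie below the D1 points of the same culture. Monolayer D2 replicate 2, the triangle, is the highest of its group in each of the 9 panels.

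Of the regulators and sterol carriers Srebf1, Srebf2, Scap, Insig1, Insig2 and Stard4, 4 were lower and 2 higher at D2, with a median log2 difference of -0.14. Srebf1 and Srebf2, which encode the SREBP factors, differed between stages by -0.09 ± 0.12 and -0.22 ± 0.18 and between cultures by 0.07 ± 0.12 and -0.16 ± 0.18 on the log2 scale (SE). The other tested probe set of Srebf2 gave -0.15 for stage and 0.12 for culture. Insig1, itself an SREBP target, was 0.33 ± 0.14 (SE) higher in suspension, adjusted p = 0.592 in limma. Stard4, which carries cholesterol between membranes, had signals of 6473, 6723 and 6098 in monolayer D1, 6628, 6827 and 5139 in suspension D1, 2307, 5794 and 3577 in monolayer D2, and 5759, 4913 and 5607 in suspension D2. The monolayer stages did not overlap, with monolayer D2 replicate 1 far below the rest, and the log2 difference of stages in monolayer was -0.80 ± 0.26 (SE), adjusted p = 0.413 in limma.

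Scap showed the largest interaction of culture and stage among the members, and its probe sets disagreed. The probe set chosen for it had the higher mean signal but lies on another chip than the other tested one. The chips were scaled separately, so which of the probe sets is brighter cannot be read from the signals. The chosen one, on MOE430B, read 1408, 1850 and 2011 in monolayer D1, 495, 705.1 and 1338 in suspension D1, 1822, 1725 and 1180 in monolayer D2, and 1619, 2100 and 1186 in suspension D2. All suspension D1 samples lay below monolayer D1, and the cultures overlapped at D2. The values of 495 and 705.1 lie below the median of MOE430B, 846.4, and a filter that asks for all 12 arrays above the median leaves this probe set out. The interaction was 1.09 ± 0.53 (SE), with an unadjusted p of 0.0577 and an adjusted p of 1.0 in limma, and suspension minus monolayer at D1 was -1.05 ± 0.38 (SE), adjusted p = 0.848. The other tested probe set of Scap, on MOE430A, gave 0.33 for suspension minus monolayer at D1 and 0.07 for the interaction, so the signs at D1 were opposite.

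Of the fatty acid genes, Fasn and Elovl6 each had all monolayer D2 samples below every other sample. Acly and Scd2 also had their lowest group mean in monolayer D2. Fasn encodes fatty acid synthase, which builds palmitate. Its signal was 8603, 5666 and 6274 in monolayer D1, 9097, 7215 and 9688 in suspension D1, 4276, 5318 and 4706 in monolayer D2, and 6620, 6727 and 7263 in suspension D2. The 3 monolayer D2 samples lay below all other 9 samples. Suspension was 1.36-fold above monolayer over both stages, a log2 difference of 0.44 ± 0.12 (SE, adjusted p = 0.251 in limma), and D2 minus D1 was -0.41 ± 0.12 (SE, adjusted p = 0.223). The difference of cultures was 0.36, 0.33 and 0.62 in the 3 wash batches, and that of stages was -0.72, -0.11 and -0.41. Acaca, which encodes the carboxylase that makes malonyl-CoA, and Acly, which makes cytosolic acetyl-CoA from citrate, differed between stages by -0.25 ± 0.13 and -0.28 ± 0.20 on the log2 scale (SE).

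Elovl6 encodes the elongase that extends palmitate. Its signal was 5836, 4833 and 5670 in monolayer D1, 5786, 4363 and 5524 in suspension D1, 3071, 4187 and 3904 in monolayer D2, and 4883, 4279 and 4198 in suspension D2. The stages did not overlap in monolayer and overlapped in suspension, where replicate 2 was low at D1. D2 minus D1 was -0.39 ± 0.11 (SE), adjusted p = 0.224 in limma, and -0.02 in the earlier batch of station 1. Of its other tested probe sets, the one on MOE430A gave -0.41 and the one on MOE430B gave 0.22.

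Scd2, a desaturase that makes monounsaturated fatty acids, had signals of 18000, 15840 and 23430 in monolayer D1, 26090, 20820 and 22920 in suspension D1, 12350, 20140 and 10340 in monolayer D2, and 19340, 15760 and 17660 in suspension D2. The stages did not overlap in suspension, and in monolayer D2 replicate 2 lay within the D1 range. D2 minus D1 was -0.43 ± 0.16 (SE), adjusted p = 0.334 in limma. Its other tested probe sets gave -0.33 and 0.04, and Scd1 and Scd2 are close relatives whose probe sets could share signal. Scd1, Fads1 and Fads2 differed between stages by -0.12, -0.06 and -0.10 on the log2 scale. The other tested probe set of Fads2, nearly as bright, gave -0.84, adjusted p = 0.124 in limma.

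Between the cultures, more members were higher than lower in suspension. Averaged over stages, 21 of 31 members were above 0 and 10 below, the lowest being Scap at -0.51, whose other tested probe set gave 0.37, Pmvk at -0.46 and Mvk at -0.38. The 31 members had a median log2 difference of 0.20 against -0.02 over all genes, of which 46.2% were above 0. No member passed, against 0.37% of genes called, and the smallest adjusted p was 0.194, for Hmgcs1, in limma. At an unadjusted p under 0.05, 8 members were higher (Hmgcs1, Idi1, Fdft1, Sqle, Lss, Msmo1, Insig1 and Fasn) and 1 lower (Pmvk), against 3.73% and 5.0% of genes. The members' median was 0.17, 0.12 and 0.28 in the 3 wash batches, and 17 members were above 0 in all 3. Mvk, Pmvk, Srebf2, Scap and Fads1 were below 0 in all 3. Averaged over stages, the other tested probe sets of Srebf2 and Fads1 gave 0.12 and 0.09, the opposite sign. Of the 17 members, Fdft1, Acly, Scd1 and Scd2 also had a tested probe set of opposite sign. No share of all genes is given for these counts by batch, and the batches divide the same samples as the average.

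At D1 alone the median of suspension minus monolayer was 0.10, with 18 of 31 members above 0, against 46.1% of all genes. No member passed, against 0.0865% of genes, and at an unadjusted p under 0.05 there were 2 higher members and 1 lower, against 2.01% and 3.04%. Groups did not overlap for 4 members that were higher in suspension, Hmgcs1, Fdft1, Insig1 and Scd1, and for 2 that were lower, Scap and Fads2, against 3.78% and 5.71% of all genes. At D1 another tested probe set had the opposite sign for Fdft1 (-0.5), Scd1 (-0.11), Scap (0.33) and Fads2 (0.16). A further probe set of Fdft1 gave 0.39, and the others of Hmgcs1 gave 0.28 to 0.66. At D2 the median was 0.23, with 23 members above 0, against 49.5% of all genes. None passed, against 0.0865% of genes, and 8 were higher and 1 lower at an unadjusted p under 0.05, against 3.3% and 3.83%. Groups did not overlap at D2 for Fasn and Elovl6, higher in suspension, and Pmvk, lower, against 7.0% and 7.23% of genes. These counts grow when a sample is left out, since fewer values then have to separate. In either direction, the D1 count was 10 to 14 without monolayer D1 replicate 2 or 3 or suspension D1 replicate 2. The D2 count was 15 without monolayer D2 replicate 2 and 11 without suspension D2 replicate 2. No share of all genes is given for these leave-out counts, so they are not read as a result about the members. Without monolayer D2 replicate 2 the D2 median was 0.34.

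Within monolayer, D2 minus D1 had a median of -0.28, with 26 members below 0, against 50.6% of all genes. None passed, against 0.0157% of genes, and 9 were lower and 0 higher at an unadjusted p under 0.05, against 4.25% and 4.66%. Groups did not overlap for 7 lower members, Lss, Nsdhl, Hsd17b7, Dhcr7, Stard4, Fasn and Elovl6, against 6.78% of genes. Of their other tested probe sets, that of Elovl6 on MOE430B had the opposite sign in monolayer, at 0.52, and the rest were below 0. In either direction, the count of members that did not overlap was 18 without monolayer D2 replicate 2 and 12 without monolayer D1 replicate 2. Within suspension the median was -0.22, with 25 below 0, against 46.4% of all genes. None passed, against 0.0% of genes, and 1 was lower (Dhcr7) and 1 higher (Scap) at an unadjusted p under 0.05, against 2.51% and 3.37%. Groups did not overlap there for 3 lower members, Dhcr7, Acaca and Scd2, against 5.84% of genes. The other tested probe sets had the opposite sign in suspension, 0.46 for Acaca and 0.05 and 0.52 for Scd2. In either direction, the count of members that did not overlap was 11 without suspension D2 replicate 1 and 10 without suspension D1 replicate 2. With a sample left out, fewer values have to separate in either culture. No share of all genes is given for those counts, so they are not read as a result about the members. The comparisons within a stage and within a culture share samples, so they are given side by side only. The interaction had a median of 0.14, which was -0.02 when arrays were centred on their medians, with 23 members above 0, against 52.4% of all genes, and an adjusted p of 1.0 in limma for each member, with 0.0% of genes called and 0 members at an unadjusted p under 0.05, so no member was shown to differ between cultures in its stage difference.

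Ranked by group mean, monolayer D2 was the lowest group for 19 of 31 members, against 27.3% of all genes, and suspension D1 the highest for 16, against 22.1%. The range between group means was 0.17 on the log2 scale for Mvd and 1.36 for Hmgcs1, and the residual SD within groups was 0.18 and 0.40.

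**Figure D4:**
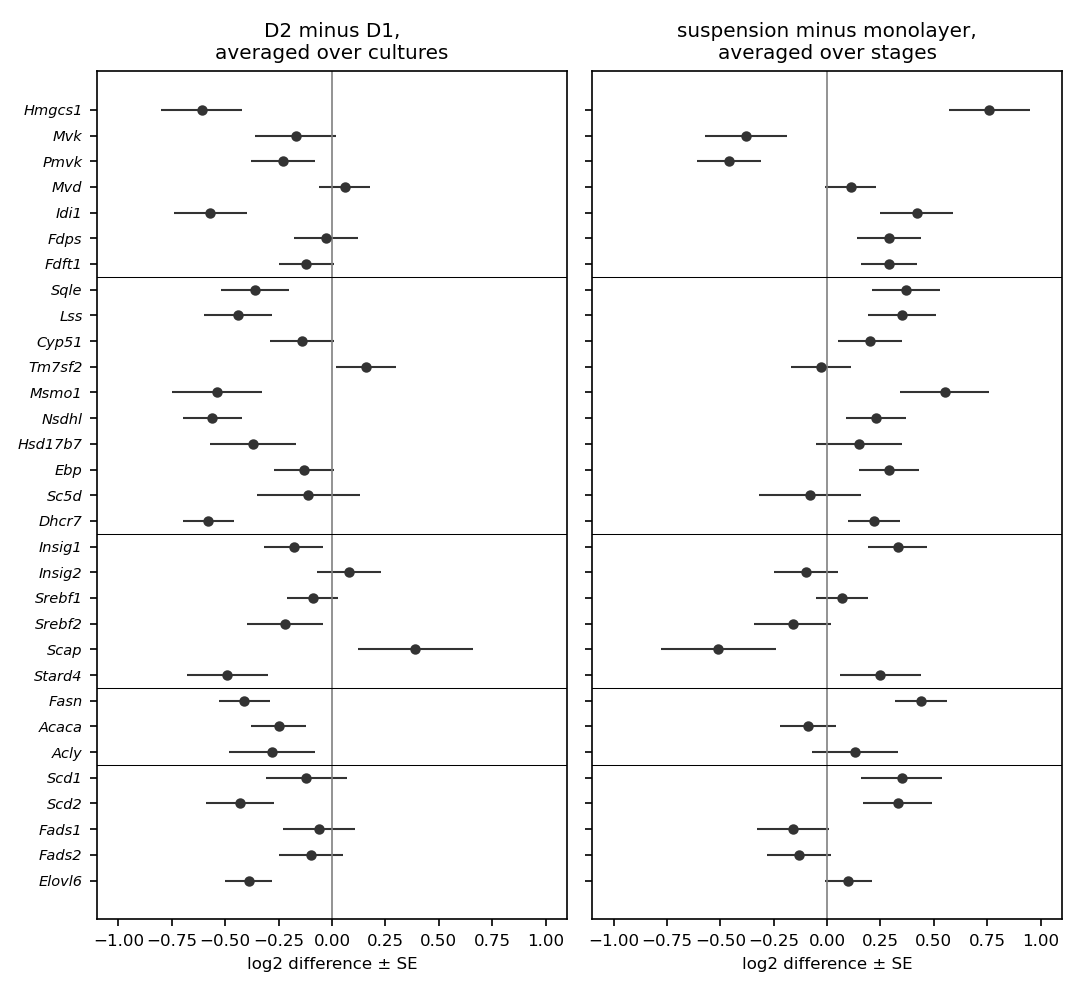
Points are log2 differences of 31 members with their SE from limma: D2 minus D1 averaged over cultures on the left, and suspension minus monolayer averaged over stages on the right. On the left 27 points lie below 0, and on the right 21 lie above 0, with Scap, Pmvk and Mvk the lowest at -0.51, -0.46 and -0.38. No point passed the adjusted threshold.

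Genes of neighbouring pathways were read in the same way, in 4 lists. Of the isoprenoid branch that leads to ubiquinone, dolichol and protein prenylation, 8 of 10 genes were tested, 7 were higher at D2, and the median of D2 minus D1 was 0.14. Of other genes of fatty acid synthesis and activation, 17 of 19 were tested, with 12 lower at D2 and a median of -0.12. For SREBP processing and sterol-induced degradation, 7 of 8 were tested, and the median was -0.02. For sterol transport, esterification and LXR targets, 9 of 12 were tested, 7 were higher at D2, and the median was 0.36. Over all tested genes the median was 0.01, with 52.3% above 0 and 47.7% below. No gene of the 4 lists passed in any comparison. The smallest adjusted p for stage in these lists was 0.125 in limma, for Acat1, an acetyl-CoA acetyltransferase of mitochondria, at 0.59 ± 0.13 (SE). Acat1 was counted in the last list, among its 7 higher genes and in its median. By that function it is not a gene of sterol transport or esterification. Osbp, an oxysterol-binding protein, had the next smallest, at 0.42 ± 0.10 (SE), adjusted p = 0.157 in limma. Npc2, which hands cholesterol out of lysosomes, was at 0.36 ± 0.12 (SE), adjusted p = 0.297 in limma.

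Members with several probe sets were not always read alike. Of the 31 members' other 27 tested probe sets, 18 had the sign of the chosen one for D2 minus D1 and 9 the opposite sign, in Mvd, Fdft1, Hsd17b7, Scap, Acaca, Scd1, Scd2, Fads1 and Elovl6. For suspension minus monolayer the counts were 17 and 10, with the opposite signs in Fdft1, Hsd17b7, Sc5d, Srebf2, Scap, Acly, Scd1, Scd2, Fads1 and Fads2. Hmgcs1 and Idi1 kept their sign in all tested probe sets for both comparisons.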

How the data were processed

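Total RNA of 12 P19 samples was read on 2 Affymetrix chips. The deposited files hold linear signal intensities, which the authors made with MAS5 according to the submitters' processing notes; its version is not given in the sources used here. They were already scaled, to a 2% trimmed mean of 1500.2 to 1500.6 on every array, and were kept so. The deposited array description files also hold other values, of which only the wash station and the hour in the hybridization date field were used. That hour was read as the wash order. Detection calls were not used here, and arrays have no read depth, so the number of arrays limits the precision.

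Signals were put on the log2(signal + offset) scale, the offset being the 10th percentile of a chip's signals, 51.0 on MOE430A and 108.1 on MOE430B, which understates the difference of dim genes. Tested probe sets had 3 or more of 12 arrays above the chip median, 599.8 or 846.4. Control probe sets were left out, and probe sets on both chips were taken from MOE430A. A gene is its single-symbol probe set with the highest mean signal, by the platform annotation. The chips were scaled separately, so signals are not comparable between them, and a choice between probe sets of both chips rests on unlike scales. In monolayer D1 replicate 1 the Gapdh 3′ control read 91136 on MOE430A and 378666 on MOE430B. Tests used limma 3.58.1 in R 4.3.3 (lmFit, eBayes with a variance trend), per chip, with 1 mean per group over all 12 samples, two-sided, adjusted by Benjamini-Hochberg over 26516 probe sets. Groups of a comparison averaged over the other factor count as not overlapping only where they do so the same way at both of its levels.

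The members, the gene lists and the rule for named members were chosen with earlier results of these data known. By that rule, members with the lowest p were described, 8 for stage, 4 for culture and 2 for the interaction. Stard4 was added after its values were seen. The alternatives tried were normalization, offset, filter, probe set choice, variance prior, array weights, replicate and wash blocks and leaving out samples. The fit was tested on simulated data.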

Additional observations from a re-analysis of the deposited data

How the results depend on the processing

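Under 24 alternatives no member's named difference reversed its sign. For the choice of probe set, the alternative was the median over a gene's probe sets. Taken singly, a tested probe set of Elovl6 and another of Scd2 had the opposite sign for stage, at 0.22 and 0.04. The members' median of the interaction, 0.14, was -0.02 under median centring, the medians of the other 6 comparisons kept their sign, and each median stayed within 0.16 log2, the SD between replicates, of its value. Of 335 named differences recomputed, 326 stayed on their side of the threshold and 9 newly passed. For D2 minus D1 averaged over cultures, members past the test numbered 4 with array weights (Idi1, Dhcr7, Fasn and Elovl6, adjusted p 0.0402, 0.0218, 0.0365 and 0.0428 in limma). These weights called 485 of 26516 probe sets, against 0 before. Leaving out single samples gave 0 to 2 members there (Idi1 and Dhcr7, adjusted p 0.0297 and 0.0328 in limma, without monolayer D1 replicate 2, when 514 probe sets were called) and 0 to 1 for suspension minus monolayer averaged over stages (Hmgcs1, adjusted p 0.028 in limma, without monolayer D2 replicate 2). That last setting called 44 probe sets for culture averaged over stages, against 68 with all samples. The cause of these changes was not tested.

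With the replicate block 2 members passed (Nsdhl and Dhcr7, adjusted p 0.0408 and 0.0203 in limma), and 595 probe sets did. Same-numbered samples of different groups correlated at 0.1 to 0.388 on MOE430A and 0.01 to 0.161 on MOE430B, which is not over 0.1 for every pair, so the numbers were not taken as pairs. All 12 samples correlated best with their own number on both chips, a hint from the data and not from the design. The replicate block changed no other call of a member. The wash batch block called 0 members, and 25 probe sets for stage. Wash batch and replicate number differ only for replicates 1 and 2 of suspension D2, so the blocks are not independent alternatives.

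Counts of members that did not overlap, in either direction, moved most, and no share of all genes is given for them under the alternatives. They are therefore not read as a result about the members. Leaving out single samples, which leaves fewer values to separate, gave 6 to 14 for culture at D1, 3 to 15 for culture at D2, 7 to 18 for stage in monolayer, 3 to 11 for stage in suspension, 0 to 3 for culture averaged and 1 to 4 for stage averaged. Without the later wash run these were 14 and 6 for culture at D1 and D2, 11 and 11 for stage in monolayer and suspension, and 4 for stage averaged. Median centring gave 7 for stage in suspension, 1 for culture averaged and 3 for stage averaged. The median over a gene's probe sets gave 3 for culture at D1 and 1 for stage in suspension.

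Over all probe sets, calls ran under the alternatives from 0 to 30 for culture at D1 and from 1 to 89 at D2 (14 each before), from 0 to 225 and 0 to 2 for stage in monolayer and suspension (2 and 0), from 14 to 220 for culture averaged (68), from 0 to 595 for stage averaged (0) and from 0 to 1 for the interaction (0).

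The precision is that of 3 arrays per group. The labels give no origin of the replicates, and wash batch and sample share their split.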
